A study of Mus musculus with 10 samples.

Results

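The expression of 10 genes of vascular endothelial cells was examined in the cerebral cortex of *p97FE65* wild type and null mice: Egfl7, Ramp2, Cldn5, Pecam1, Flt1, Kdr, Tek, Cdh5, Vwf and Slc2a1. Every probe set annotated to one of these genes was taken, which gave 18 probe sets for 10 genes of the 12393 genes measured. Egfl7 and Ramp2 were chosen from the difference between the groups of mice, so their differences are described here without a test. The other 8 genes were listed for their known place in endothelium, and their 13 probe sets were tested. These genes and the further gene lists below were chosen with earlier results of these data known, which limits their tests. The mice were males of 6 months, described as 5 littermate pairs, with 5 arrays labelled wild type for *p97FE65* and 5 labelled null, and each array carried the cortex RNA of 1 mouse. The null mice lack full-length FE65 (p97FE65), an adaptor protein that binds the amyloid precursor protein, because the targeted exon with the first start codon is skipped, while the rest of the FE65 transcript is still made. The line began in R1 embryonic stem cells of a strain other than C57Bl/6J, the strain to which it was then crossed back over 10 generations, so sequence of the first strain can remain around FE65 on chromosome 7. None of the 10 endothelial genes lies on that chromosome in the mouse assembly GRCm38.p6.

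Endothelial cells line the vessels of the brain, where tight junctions between neighbouring cells and a small set of transporters form the blood-brain barrier. Vascular endothelial growth factor acts on these cells through the receptors encoded by Flt1 and Kdr, and the angiopoietins act through the receptor encoded by Tek. Adhesion proteins such as those of Cdh5 and Pecam1 hold the cells together, and secreted proteins such as those of Egfl7 and Vwf act at the vessel wall or in the blood.

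Expression is given in log2 units of GC-RMA, with which the authors corrected each probe's background from its GC content. Array medians over all probe sets ran from 3.01 to 3.14, and 2 arrays correlated at 0.994 to 0.999 without being identical. In whole cortex the endothelial genes were read at very different signal. The brightest probe sets of 4 genes, Egfl7, Ramp2, Tek and Slc2a1, had a mean of at least 5, a level reached by 34.6% of all probe sets. The brightest probe sets of Pecam1, Cdh5 and Vwf, which are defining endothelial genes, lay below the array median on all 10 arrays. Those of Cldn5, Flt1 and Kdr lay between these. The array median is not a detection limit, but the dim probe sets can show little of a difference. Of 4 markers of the neurons of the cortex, Snap25, Syt1 and Gad1 were bright. The other, Rbfox3, averaged 4.34 (log2) under the wild type label and 3.98 under the null label. The sum over the 4 genes was 14.06 to 14.38 on the arrays labelled wild type and 14.04 to 14.31 on those labelled null. A sum over genes is not comparable with the level of 1 probe set.

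Egfl7 encodes a secreted protein of endothelial cells with EGF-like domains, and an intron of the gene holds the endothelial microRNA miR-126. The mature miR-126a-3p lies inside Egfl7 at chr2:26591402-26591423 on the plus strand (GRCm38.p6, RefSeq), and it is shown because the host gene carries the widest difference among the 10 genes. The capitals mark its seed, bases 2 to 8 from the 5′ end, and the microRNA itself was not analysed here.
mmu-miR-126a-3p: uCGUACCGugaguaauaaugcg

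Egfl7 was lower in the arrays labelled null at each of its 4 probe sets, by sizes from 0.08 to 0.52 (log2). At probe set 1421335_a_at the 5 mice labelled wild type were at 3.64, 3.75, 3.31, 3.40 and 3.30 (log2), and the 5 labelled null at 2.60, 3.16, 2.94, 3.16 and 2.93. The highest mouse labelled null was below the lowest labelled wild type, an order that 0.331% of all probe sets show, while 0.623% have groups apart in either direction. The means were 3.48 ± 0.20 (SD, n = 5) and 2.96 ± 0.23 (SD, n = 5), a difference of -0.52 or 1.44-fold. This is the direction of the labels, and it is the opposite of the study's own, whose tables list Gprc5b as raised in null cortex while 1 of its probe sets was lower by 2.35-fold under the null label here. Ramp2 is listed as raised there too, while here it was lower under the null label, as Gprc5b was. Its size here, 1.08-fold with overlapping groups, was smaller than the one listed there. The study's RT-PCR over the region of that Gprc5b probe set was also higher in null forebrain. Which genotype stands behind a label could not be settled from the array values alone, so arrays are named by their labels. A direction given here by label may therefore be the reverse of that by genotype.

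The gene that 1421335_a_at reads is itself uncertain. The platform annotation names Egfl7, but the transcript accession given for the probe set belongs in RefSeq to Vezf1, a zinc finger transcription factor of vascular endothelial cells. Of 5884 probe sets with 1 annotated gene and an accession held by RefSeq, 16 (0.272%) carry the accession of another gene. No other probe set of the array is annotated to Vezf1. The other 3 Egfl7 probe sets have accessions that RefSeq does not hold, so the same check could not be made for them. They show no known conflict, but whether each reads Egfl7 alone was not checked. The brightest, 1435823_x_at, had a mean of 6.17 (log2) over all arrays, against 3.59 for 1451427_a_at and 3.42 for 1451428_x_at. Its correlation with them, after the label means were removed, was r = 0.42 and r = 0.33. The values of these probe sets follow.

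Probe set 1435823_x_at, the brightest of Egfl7, was at 6.18, 6.29, 6.49, 6.29 and 6.10 (log2) in the mice labelled wild type and at 5.95, 6.01, 6.08, 6.30 and 6.00 in those labelled null. Of the latter, 4 lay below the lowest mouse labelled wild type, and the fifth lay among the highest. The difference was -0.20, or 1.15-fold, between means of 6.27 ± 0.15 and 6.07 ± 0.14 (SD, n = 5 each). At 1451427_a_at the values were 3.45, 4.20, 3.63, 3.67 and 3.51 against 3.38, 3.25, 3.56, 3.68 and 3.57. The groups overlapped there, and the difference of -0.21 shrank to -0.08 without wild type replicate 2, the mouse at 4.20. At 1451428_x_at the values were 3.35, 3.47, 3.48, 3.56 and 3.43 against 3.33, 3.49, 3.30, 3.41 and 3.37, a difference of -0.08 with overlapping groups. Without the probe set of uncertain gene, Egfl7 thus differed by 0.08 to 0.21 (log2), and 0 of its 3 probe sets had groups that did not overlap. Fewer endothelial cells and less RNA per cell cannot be told apart in RNA of whole cortex.

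**Figure D1:**
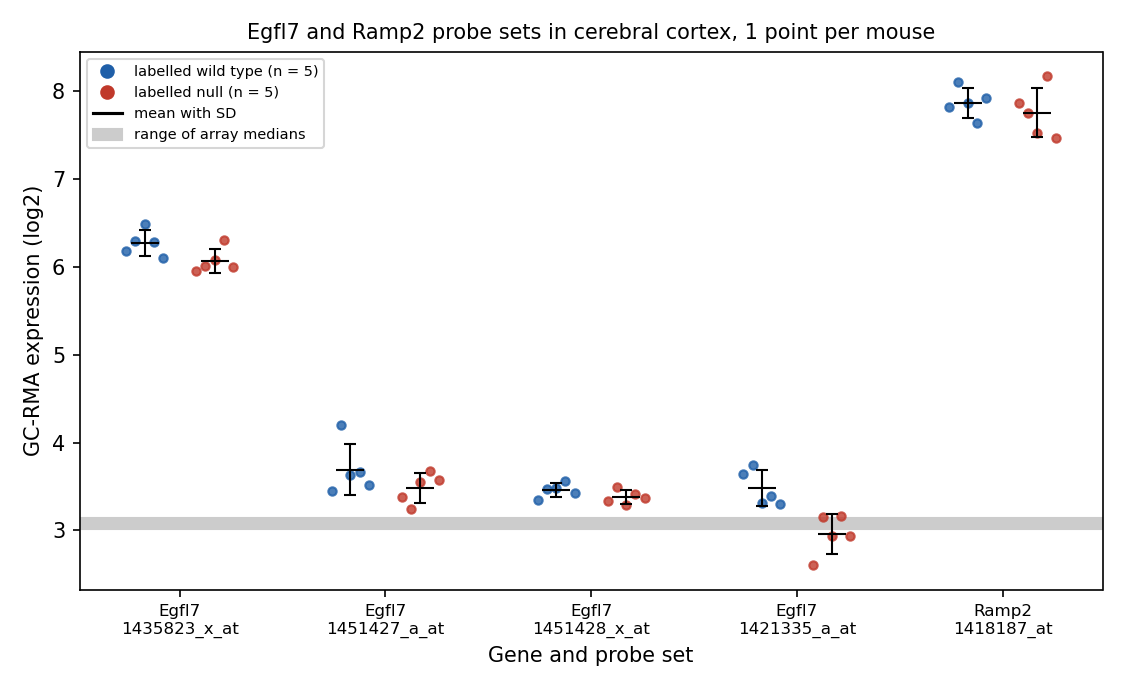
GC-RMA expression (log2, vertical axis) of the 4 Egfl7 probe sets and the Ramp2 probe set (horizontal axis), where each point is 1 mouse, in blue for the 5 arrays labelled wild type and in red for the 5 labelled null, the mean with its SD in black, and the range of the array medians (3.01 to 3.14) in grey. The groups are apart only at Egfl7 1421335_a_at, close to the array medians, and overlap at the other 4 probe sets.

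Ramp2 encodes a membrane protein that pairs with the calcitonin receptor-like receptor (Calcrl) to form a receptor of adrenomedullin, a peptide that relaxes vessels and tightens the endothelial barrier. Its probe set, 1418187_at, was at 7.82, 8.10, 7.87, 7.64 and 7.92 (log2) in the mice labelled wild type. It was at 7.86, 7.76, 7.53, 8.18 and 7.47 in those labelled null. The mouse with the highest value and the mouse with the lowest were both labelled null, so the groups overlapped along most of their range. The means were 7.87 ± 0.17 and 7.76 ± 0.28 (SD, n = 5 each), a difference of -0.11 or 1.08-fold. Without null replicate 4 it was -0.22, and after quantile normalization it was -0.04.

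None of the measured partners of Ramp2 passed the threshold. Calcrl, the receptor that Ramp2 carries to the membrane, was dim in both groups and differed by 0.11 (SE 0.07; limma adjusted p = 0.999). Ramp1, whose product makes the same receptor respond to CGRP, differed by -0.07 (SE 0.11), and Ramp3, the third family member, by 0.07 (SE 0.08). Calcr, the calcitonin receptor, differed by 0.01 (SE 0.06). Of the 7 measured partners, which also included the ligands Adm, Calcb and Iapp, 0 had an unadjusted limma p under 0.05, 3 differences were below 0 and 4 above, and their median was 0.01.

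Among the other 8 genes, 0 of the 13 probe sets had a limma p under 0.05 after Benjamini-Hochberg adjustment over all 22626 probe sets. At an unadjusted limma p under 0.05 there were also 0 of 13, against 3.67% of all probe sets in either direction, or 2.43% when only lower values under the null label are counted. The labelled groups overlapped at all 13, and groups that do not overlap are found at 0.623% of all probe sets. The differences were below 0 at 8 of the 13, and their median was -0.02, against 50.2% below 0 and a median of -0.0004 over all probe sets. Each of the 13 had an adjusted limma p of 0.999. By the methods' t-test 1 of the 13, a probe set of Cdh5, was under 0.05 before adjustment and 0 after it.

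Of the junction and adhesion genes, Cldn5, the main claudin of the tight junctions of brain endothelium, had the widest spread from mouse to mouse of the 10 genes in both groups. Its probe set 1417839_at was at 4.96, 4.05, 4.62, 5.17 and 4.44 (log2) in the mice labelled wild type and at 4.95, 4.97, 4.44, 3.68 and 4.71 in those labelled null. The lowest mouse was labelled null and the highest labelled wild type, with the rest mixed. The difference was -0.09 (SE 0.27; exact two-sided permutation p = 0.754). Its 95% confidence interval, -0.70 to 0.51, covers ratios of null to wild type from 0.617 to 1.42. It was 0.12 without null replicate 4 and -0.24 without wild type replicate 2.

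Cdh5 encodes VE-cadherin, the adhesion protein of the adherens junctions between endothelial cells. Its brighter probe set, 1433956_at, was at 2.91, 2.95, 2.95, 3.01 and 2.93 (log2) in the mice labelled wild type and at 2.85, 2.87, 2.95, 2.88 and 2.83 in those labelled null. Of the mice labelled null, 4 lay below the lowest labelled wild type. The difference was -0.07 (SE 0.04), with a 95% confidence interval from -0.16 to 0.01. Before adjustment the exact permutation p was 0.0397 (two-sided) and the limma p 0.0856, and the adjusted limma p was 0.999. The value is small beside its low signal, since all 10 arrays were below their medians. The other Cdh5 probe set, 1422047_at, was dimmer still, at 1.60 to 1.82 in the mice labelled wild type and 1.60 to 1.77 in those labelled null, and differed by 0.01 (SE 0.05). Pecam1, an adhesion protein also known as CD31, was at 2.07, 1.97, 2.15, 2.19 and 2.05 against 2.05, 2.25, 1.96, 2.11 and 2.21 (1421287_a_at). The groups overlapped throughout, with a difference of 0.03 (SE 0.06) and a 95% confidence interval from -0.12 to 0.17.

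Of the receptor genes, Tek, which encodes the angiopoietin receptor Tie2, was the brightest. Its probe set 1418788_at was at 6.21, 6.21, 6.95, 6.28 and 6.43 (log2) in the mice labelled wild type and at 6.20, 6.67, 6.26, 5.74 and 6.75 in those labelled null. The groups overlapped, and wild type replicate 3 and null replicate 4 marked the ends. The difference was -0.09 (SE 0.20; exact two-sided permutation p = 0.706), and its 95% confidence interval was -0.54 to 0.36. Kdr, the main signalling receptor of vascular endothelial growth factor, was the least variable of the 10 genes in the mice labelled wild type. Its values there were 4.74, 4.70, 4.71, 4.71 and 4.71 (1449379_at), against 4.73, 4.69, 4.59, 4.70 and 4.71 in the mice labelled null. Kdr differed by -0.03 (SE 0.04; 95% confidence interval -0.12 to 0.05), and by -0.01 without null replicate 3, the mouse at 4.59.

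Flt1, a second receptor of the growth factor that also exists in a soluble form, was read by 3 probe sets. The brightest, 1454037_a_at, was at 3.51, 3.88, 3.75, 3.66 and 3.28 (log2) in the mice labelled wild type and at 3.64, 3.75, 3.68, 3.89 and 3.54 in those labelled null. It differed by 0.08 (SE 0.11), with a 95% confidence interval from -0.16 to 0.32 and overlapping groups. Probe sets 1419300_at and 1451756_at differed by 0.01 (SE 0.06) and -0.02 (SE 0.04), so the 3 did not share a direction. Whether any of the probe sets tells the soluble form from the membrane form was not checked.

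The ligands and coreceptors of these receptors, listed with the related receptors Flt4 and Tie1, gave no difference past the threshold either. Of 12 measured genes, 0 had an unadjusted limma p under 0.05, 6 differences were below 0 and 6 above, and their median was -0.01. Vegfa, the main growth factor of the family, differed by -0.14 (SE 0.08; limma adjusted p = 0.999), and it had the widest difference of the list. Its relatives Vegfb, Vegfc and Vegfd differed by -0.02 (SE 0.10), -0.03 (SE 0.05) and 0.01 (SE 0.06).

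Vwf encodes von Willebrand factor, a large secreted protein that binds platelets. Its probe set 1435386_at was at 1.97, 2.09, 2.44, 2.06 and 2.02 (log2) in the mice labelled wild type and at 2.04, 2.02, 2.13, 2.04 and 2.13 in those labelled null. All 10 values were below the array medians, and wild type replicate 3 stood above the rest. The difference was -0.04 (SE 0.08), with a 95% confidence interval from -0.22 to 0.14, and it was 0.04 without wild type replicate 3.

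Slc2a1 encodes GLUT1, the glucose transporter of the blood-brain barrier, which astrocytes carry as well. Its brightest probe set, 1426600_at, was at 7.68, 7.36, 7.95, 7.43 and 7.74 (log2) in the mice labelled wild type and at 7.62, 7.24, 7.85, 8.01 and 7.35 in those labelled null. The groups covered nearly the same range. The difference was -0.02 (SE 0.16), and its 95% confidence interval, -0.38 to 0.34, covers ratios of null to wild type from 0.771 to 1.26.

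At 1434773_a_at the Slc2a1 values were 6.27, 6.61, 7.15, 6.90 and 7.03 against 6.04, 6.27, 7.05, 6.88 and 6.94. The groups overlapped along most of their range. The difference was -0.16 (SE 0.23), with a 95% confidence interval from -0.66 to 0.35. The third probe set, 1426599_a_at, ran from 4.98 to 5.78 and from 5.14 to 5.95, and differed by 0.07 (SE 0.20). The 3 probe sets thus differed in direction, and each difference was smaller than the spread between mice. Among relatives of Slc2a1, 0 of 7 measured glucose transporters had an unadjusted limma p under 0.05. The neuronal transporter Slc2a3 differed by -0.09 (SE 0.06), and Slc2a2, Slc2a4 and Slc2a5, the transporters of liver, of muscle and fat, and of fructose, by 0.03 (SE 0.04), 0.03 (SE 0.05) and -0.07 (SE 0.08).

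**Figure D2:**
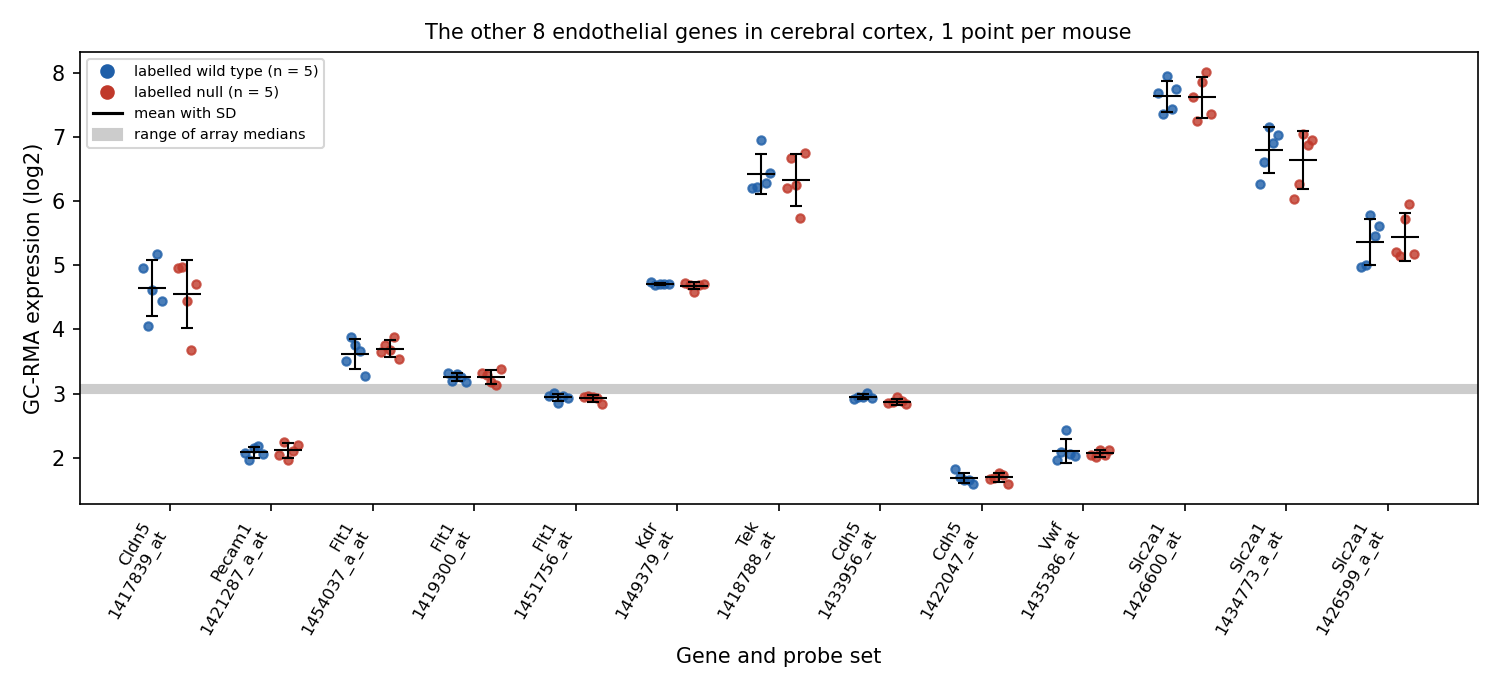
GC-RMA expression (log2, vertical axis) of the 13 probe sets of the other 8 genes (horizontal axis), where each point is 1 mouse, in blue for the 5 arrays labelled wild type and in red for the 5 labelled null, the mean with its SD in black and the range of the array medians (3.01 to 3.14) in grey. The groups overlap at each probe set, and Pecam1, Cdh5, Vwf and Flt1 1451756_at lie below the grey band.

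**Figure D3:**
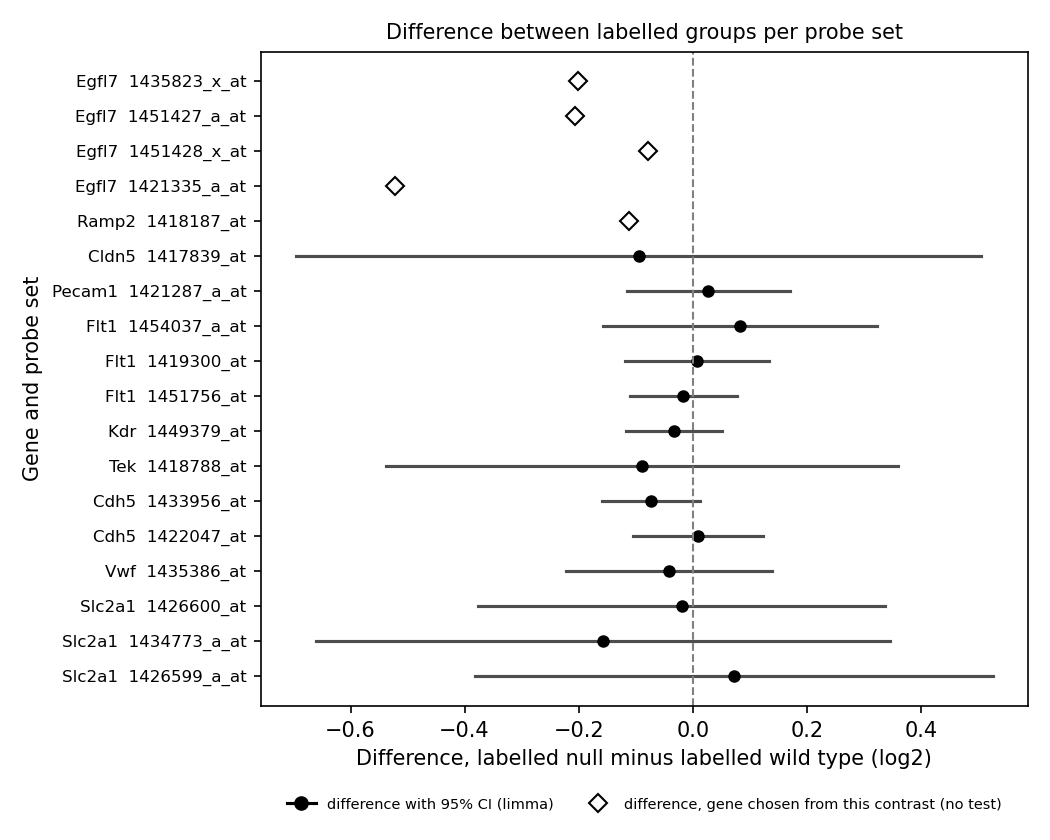
Difference between the labelled groups, as null minus wild type (log2, horizontal axis), for the 18 probe sets (vertical axis), with the 95% confidence interval from limma for the 13 tested probe sets (filled circles) and without one for Egfl7 and Ramp2 (open diamonds), which were chosen from this contrast. All 13 intervals include 0, and they are wide for Cldn5, Tek and Slc2a1 and narrow for the dim probe sets.

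No shared rise and fall of the endothelial genes from mouse to mouse was detectable on these arrays. After the label means were removed, the brightest probe sets of the 10 genes gave 45 pairs over 10 arrays, of which 22 had a Pearson's r above 0 and 23 below, with a median of -0.01. By exact permutation within the labels, 3 pairs had an unadjusted p under 0.05 and 0 an adjusted p under 0.05 over the 45, by Pearson's r and likewise by Spearman's rho. The most positive was that of Egfl7 and Flt1 (r = 0.75, permutation p = 0.0219, adjusted p = 0.494; rho = 0.88, permutation p = 0.00451, adjusted p = 0.203). Without the 2 mice farthest from the median of Egfl7, r was 0.78. The most negative was that of Kdr and Cdh5 (r = -0.79, permutation p = 0.0108, adjusted p = 0.484; rho = -0.76, permutation p = 0.00965, adjusted p = 0.217), and without 2 mice its r was -0.28, so it rests on those mice. Ramp2 and Cldn5 ran in opposite directions (r = -0.69, permutation p = 0.0450, adjusted p = 0.675; rho = -0.59, permutation p = 0.104, adjusted p = 0.733; r = -0.48 without 2 mice). Among the 4 genes with a mean of at least 5, the 6 pairs were split 3 to 3.

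Probe sets of the same gene did not pass an adjusted threshold either, which limits what these correlations can show, as does the low signal of Pecam1, Cdh5 and Vwf. Of 13 such pairs, 11 had an r above 0, with a median of 0.30, and 0 passed an adjusted p of 0.05 over the 13 (2 had an unadjusted permutation p under 0.05). Both of those were pairs of Slc2a1. The first was 1426600_at with 1426599_a_at (r = 0.80, permutation p = 0.0188, adjusted p = 0.209; rho = 0.79, permutation p = 0.0118, adjusted p = 0.153; r = 0.71 without 2 mice). The second was 1434773_a_at with 1426599_a_at (r = 0.75, permutation p = 0.0322, adjusted p = 0.209; rho = 0.68, permutation p = 0.0394, adjusted p = 0.256; r = 0.72 without 2 mice). The 6 pairs of Egfl7 probe sets had an r from 0.07 to 0.42, and those with the probe set of uncertain gene, 1421335_a_at, lay at 0.19, 0.25 and 0.40.

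**Figure D4:**
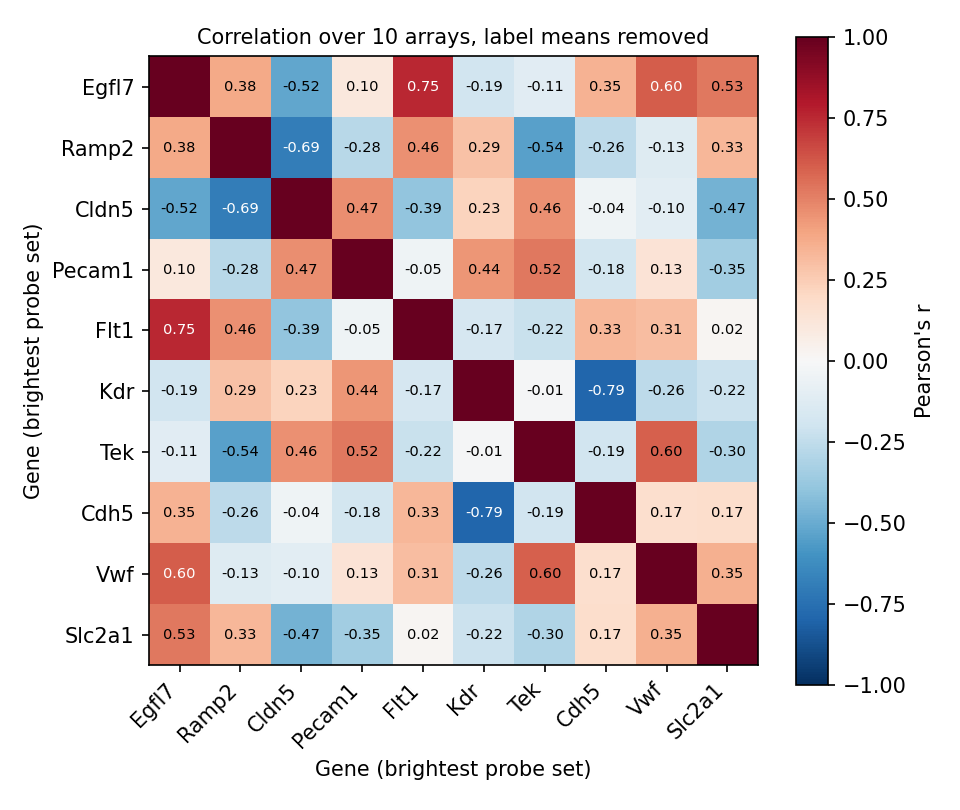
Pearson's r (colour, from -1 in blue to 1 in red) between the brightest probe sets of the 10 genes (both axes) over 10 arrays after the label means were removed. Positive and negative pairs are about equal in number (22 and 23), with Egfl7 and Flt1 at 0.75 and Kdr and Cdh5 at -0.79.

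The genes whose pattern was most like that of Egfl7 and Ramp2 were sought among bright probe sets, which leaves out 6 of the 10 endothelial genes, Flt1 among them. Over 10 arrays with the label means removed, and among 7154 probe sets with a mean of at least 5, those closest to Egfl7 1435823_x_at were Cemip2, Agpat3, Tgfa, Plxna3 and Gucd1, with a Pearson's r from 0.86 to 0.91. Those closest to Ramp2 were Naxd, Syvn1, Ptgds, Irf2bp1 and Stx6, with an r from 0.80 to 0.86. These are descriptions, since the highest of 7154 correlations over 10 arrays are high in any case. Ptgds, an enzyme of prostaglandin synthesis, is abundant in the meninges.

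Beyond the 10 genes, a list of other brain endothelial genes had few members past an unadjusted p. Of 44 measured genes, 3 were lower and 0 higher at an unadjusted limma p under 0.05, against 2.61% lower, 1.33% higher and 3.94% in either direction of all 12393 genes, each gene counted by its brightest probe set. None of the 3 passed the adjusted p. The median difference of the list was -0.02 and that of all genes -0.002, with 63.6% of the list below 0 against 51.2% of all genes. The count was 1 without null replicate 1. The junction genes that head the list, Ocln, Tjp1, Esam and Jam2, differed by -0.01 (SE 0.08), -0.17 (SE 0.11), 0.04 (SE 0.05) and 0.02 (SE 0.06).

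The 3 genes were Pltp, Abcb1a and Tfrc. Pltp, the phospholipid transfer protein, averaged 7.31 ± 0.39 under the wild type label and 6.80 ± 0.21 under the null label (1456424_s_at, SD, 5 mice each). It differed by -0.51 (SE 0.18; limma adjusted p = 0.999), and its second probe set differed by -0.38 (SE 0.16). Abcb1a, the drug efflux pump P-glycoprotein of the barrier, was at 6.89, 6.96, 7.39, 6.62 and 6.85 against 6.63, 6.69, 6.46, 6.66 and 6.75 at its brighter probe set, 1419759_at. The difference there was -0.30 (SE 0.12; limma adjusted p = 0.999), with overlapping groups, and leaving out 1 array kept the unadjusted p under 0.05 in 7 of 10 cases. At 1419758_at, the second Abcb1a probe set, it was -0.40 (SE 0.11), also under 0.05 before adjustment. Tfrc, the transferrin receptor that carries iron, differed by -0.28 (SE 0.12; limma adjusted p = 0.999) at its bright probe set, with an unadjusted p under 0.05 in 5 of 10 cases without 1 array, while its dim ones differed by 0.05 (SE 0.08) and -0.01 (SE 0.10). At 1419759_at Abcb1a was no longer under 0.05 before adjustment after quantile normalization (-0.25), with the replicate block or by the methods' t-test, and Tfrc was not by the methods' t-test. These genes are also made by other cells of the brain, and Pltp and Tfrc are not particular to endothelium.

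A list of the Egfl7 relative Egfl8 and genes of the Notch pathway, with which Egfl7 has been linked, was also read. Of its 14 genes, 1 was past an unadjusted limma p under 0.05, against 3.94% of all genes. This was Heyl, a transcription factor downstream of Notch, which was higher in the arrays labelled null by 0.18 (SE 0.07; limma adjusted p = 0.999) at its brightest probe set and differed by 0.03 and -0.01 at its dim ones. The relative Egfl8 differed by 0.02 (SE 0.05), and the receptors Notch1, Notch2 and Notch3 by -0.04 (SE 0.12), 0.02 (SE 0.20) and 0.004 (SE 0.09).

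Pericytes and smooth muscle cells wrap the same vessels, and of their 11 measured markers 1 was lower and 1 higher at an unadjusted limma p under 0.05, where 2.61% and 1.33% of all genes were. Rgs5, a regulator of G protein signalling and a leading pericyte marker, was at 10.94, 10.87, 10.98, 10.69 and 10.78 (log2) in the mice labelled wild type and at 10.50, 10.71, 10.82, 10.49 and 10.54 in those labelled null (1417466_at). The groups overlapped, and the difference was -0.24 (SE 0.08; limma adjusted p = 0.999). After quantile normalization it was -0.18 and no longer under 0.05 before adjustment. It stayed under 0.05 with the replicate block, by the methods' t-test and in 10 of 10 cases without 1 array. The other 3 Rgs5 probe sets differed by 0.15, -0.06 and -0.11. Abcc9, a channel subunit of pericytes, was higher by 0.17 (SE 0.06; limma adjusted p = 0.999) at a signal near 1.4, below all array medians. Pdgfrb, the receptor that recruits pericytes, differed by -0.13 (SE 0.17), and the channel subunit Kcnj8 by 0.12 (SE 0.06). Neither Rgs5 nor Abcc9 passed the adjusted p.

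**Figure D5:**
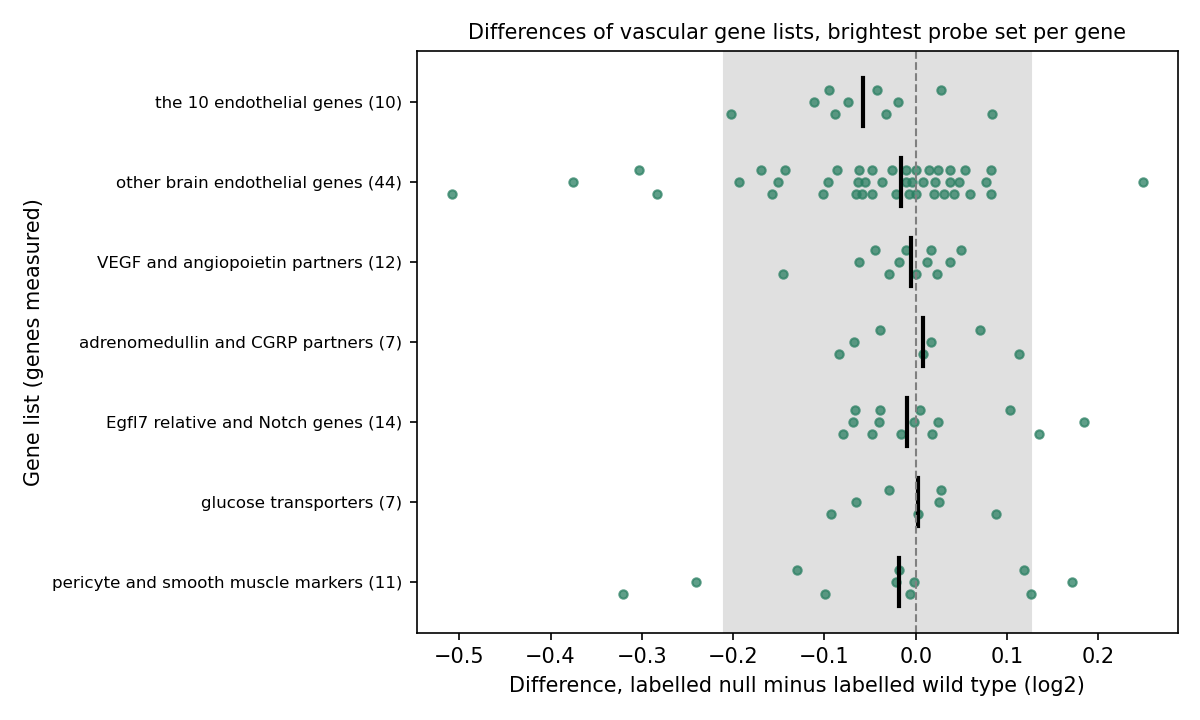
Difference between the labelled groups, as null minus wild type (log2, horizontal axis), for the genes of 7 vascular lists (vertical axis, genes measured in parentheses), with a point for the brightest probe set of each gene, the list median as a black line and the range from the 5th to the 95th percentile of all genes (-0.21 to 0.13) in grey. The list medians lie between -0.06 and 0.01, and Pltp of the endothelial list is farthest to the left at -0.51. The median of -0.06 is that of the 10 endothelial genes, which include Egfl7 and Ramp2, chosen from this contrast.

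Markers of other cells in the dissection were read beside these values, and besides the mural genes 3 were under 0.05 before adjustment, all lower in the arrays labelled null (2.61% of all genes were lower at that threshold). The summed level of the mural markers, 93.4% of which came from Rgs5, was 10.79 to 11.08 (log2) on the arrays labelled wild type and 10.59 to 10.89 on those labelled null. Without Rgs5 the other 10 summed to 6.78 to 7.26 and 6.50 to 7.06. The 8 tested endothelial genes, without Egfl7 and Ramp2, summed to 8.28 to 8.82 and 8.41 to 8.57, one range inside the other. Slc2a1 and Tek, with means of 7.62 and 6.37 at their brightest probe sets, weigh most in that sum, and astrocytes carry Slc2a1 as well.

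The 4 measured oligodendrocyte markers (Mbp, Mog, Mag and Cldn11) summed to 13.93 to 14.27 under the wild type label and 13.79 to 13.92 under the null label, but Mbp made up 96.2% of that sum. The other 3 summed to 9.21 to 9.84 and 8.93 to 9.26, ranges that overlapped. Mbp (-0.23) and Cldn11 (-0.52) were under 0.05 before adjustment. The Mbp difference was -0.11 and no longer under 0.05 after quantile normalization. It stayed under 0.05 with the replicate block, by the methods' t-test and in 10 of 10 cases without 1 array. The other 7 Mbp probe sets differed by -0.16 to 0.20, 1 of them higher and under 0.05. Cldn11 stayed under 0.05 after quantile normalization and in 3 of 10 cases without 1 array, and it did not with the replicate block or by the methods' t-test. Of the 4 neuronal markers 1, Rbfox3 (-0.37), was under 0.05. Of 8 microglial, 5 astrocytic, 7 meningeal, 6 choroid plexus and 2 blood markers, 0 were. The 2 blood markers were each below the array median on all arrays, and they summed to 2.95 to 3.18 and 2.97 to 3.02. The choroid plexus markers, 79.6% of which came from Ttr, summed to 5.67 to 7.95 and 5.69 to 6.99. The part of these cells in the endothelial values was not tested.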

How the data were processed

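The cortex RNA of 10 mice was hybridised by the authors to Affymetrix mouse expression arrays, 1 per mouse. The deposited values are log2 expression from GC-RMA, run by the authors before deposit, with no version stated in the paper or labels. Groups came from the labels alone. From the 22690 probe sets of the table, 64 controls were removed. The platform annotation gave 1 gene for 20380 of the remaining 22626, several for 691 and none for 1555. In lists, the brightest probe set stood for a gene.

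A linear model (limma 3.58.1, R 4.3.3) of null minus wild type was run over all 22626 probe sets, without pairing, with Benjamini-Hochberg adjustment and a threshold of 0.05. It was tested on simulated data. Lists were described by counts and medians. Correlations used label-centred values and exact permutations within labels (scipy 1.17.1). Alternatives were quantile normalization, median centring, a mean of at least 5, a trended robust prior, the methods' t-test, a replicate block and leaving out each array. The members and the gene lists were chosen with earlier results of these data known. From the vascular lists, the first 4 measured genes and any gene with an unadjusted p under 0.05 were named. Deviations of mice with the same replicate number correlated at 0.07 to 0.54, and 1 number was under 0.1. Only for number 1 was the mouse with the same number the best match in the other labelled group. The main fit did not use the numbers as pairs, because no source ties them to littermates. With the numbers as a block, 1078 probe sets had an unadjusted limma p under 0.05, against 830 without it. The number of arrays, and low signal at dim probe sets, limit the precision. The p-values of group differences set each difference against the spread between mice.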

Additional observations from a re-analysis of the deposited data

Results flagged for a closer look

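In 3 of the 36 groups of 5 mice (18 probe sets in 2 labelled groups), 1 mouse stood far from the other 4 by Dixon's test, and chance gives about 1 in 20. Egfl7 1451427_a_at was at 4.20 in wild type replicate 2, with the next mouse at 3.67. Vwf 1435386_at was at 2.44 in wild type replicate 3, with the next at 2.09. Flt1 1451756_at was at 2.84 in null replicate 5, with the next at 2.93. All 3 probe sets were dim, with means of 3.59, 2.09 and 2.94 (log2). Their cause was not tested.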

How the results depend on the processing

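The number of tested probe sets of the endothelial genes with an unadjusted p under 0.05, 0 of 13, was 1 with the replicate number as a block (Slc2a1 1434773_a_at, SE 0.06 against 0.23 without the block, limma adjusted p = 0.974, the mouse labelled null being lower at 5 of 5 numbers), 1 by the methods' t-test (Cdh5 1433956_at), and 0 to 1 when 1 array was left out (1 without null replicate 3, Cdh5 again). The adjusted count remained 0 in each. No source ties the replicate numbers to littermates, and the block changed no adjusted call. In the wider endothelial list the count of 3 of 44 ran from 1 (without null replicate 1) to 4 when 1 array was left out, and its median from -0.04 to -0.005. For the 50 partner, relative and mural genes outside that list, the count of 3 ran from 3 to 5 (5 without wild type replicate 3 or null replicate 1) and the median from -0.02 to 0.02. That count was 1 of 9 genes left when probe sets with a mean under 5 were dropped, and 1 when the probe sets of a gene were averaged. No pair of endothelial genes passed an adjusted p of 0.05 with or without label means, after quantile normalization, between probe sets of 1 gene (chosen after seeing the data), or without any 1 array, a count of 0 throughout. Of 276 recomputed differences of the 18 probe sets, 25 changed sign and 0 moved by more than the spread between mice. The replicate block, the robust prior, the methods' t-test and the filter on the mean cannot change a difference, so these counts include unchanged values. Of Egfl7 and Ramp2, 0 changed sign, but both genes were chosen from this contrast, so their kept sign is only a description. Their lowest and highest without 1 array were -0.57 and -0.43 (1421335_a_at), -0.26 and -0.15 (1435823_x_at), -0.27 and -0.08 (1451427_a_at), and -0.22 and -0.04 (Ramp2). The causes were not tested. Low signal limits Pecam1, Cdh5 and Vwf.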

Other observations

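Besides 1418187_at, 2 probe sets were annotated to both Ramp2 and Vps25, its neighbour on chromosome 11, which encodes a subunit of the ESCRT-II sorting complex. Neither was counted among the 18, since each could read either gene, and the accession of 1421051_s_at is that of Vps25 in RefSeq. Probe set 1421051_s_at averaged 5.56 ± 0.17 (SD, n = 5) on the log2 scale under the wild type label and 5.65 ± 0.20 under the null label. Probe set 1428621_a_at was at 5.97 ± 0.10 and 6.07 ± 0.12. Both differences, 0.08 and 0.10, ran opposite to that of 1418187_at, and the groups overlapped at both.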
